A study of Mus musculus with 14 samples.

Results

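Coagulation and fibrinolysis genes were described in the aorta and liver of mice, as a set of 32 genes picked by name from a list of clotting factors, their receptors and inhibitors, and the plasminogen system. All 32 were found among the 24732 features of the count tables. The study sequenced RNA from both tissues of HuBL and BT3xHuBL mice that had eaten ordinary laboratory chow for 52 weeks. Aorta gave 3 libraries of each genotype and liver gave 4 of each. The labels do not spell out the genotypes. From earlier work with these lines, HuBL mice are known to lack the LDL receptor and to carry human apolipoprotein B, and BT3 is known as a T cell receptor transgene directed at apolipoprotein B, so all 4 groups share the lipid background and only BT3xHuBL carries the receptor. The sources used here do not give the number of animals or the promoters of the transgenes, and no feature is tied by the labels to a transgene, so the genotype labels were not checked against the counts.

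Levels are in CPM, the count of a gene divided by the total of its library and scaled up by a fixed factor. Because transcripts were read near the 3′ end, levels were not divided by gene length. The totals ran from 41933263 to 65539765 counts in aorta and from 13228123 to 17992459 in liver, and the 32 genes took 0.0871% to 0.0946% of the counts in aorta and 2.33% to 3.16% in liver. The labelled tissues matched their defining markers: 7 smooth muscle genes summed to 12000 to 15900 CPM in the aortas and 17.7 to 45.1 CPM in the livers, and 10 hepatocyte genes summed to 6.94 to 12.2 CPM in the aortas and 129000 to 157000 CPM in the livers. The labels do not state that each library is a separate animal. All p-values therefore rest on the spread between libraries, which may be technical.

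Blood clots when tissue factor, a membrane protein of cells outside the bloodstream, meets factor VII and starts a chain of protease activations that ends in thrombin, which cuts fibrinogen to fibrin. Most of these proteases and their plasma inhibitors are secreted by hepatocytes, while the endothelium and the vessel wall carry the brakes on their cell surfaces: thrombomodulin, the endothelial protein C receptor and tissue factor pathway inhibitor. Fibrin is dissolved by plasmin, made from liver-derived plasminogen by the activators tPA and uPA, and serpins hold each step in check.

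The set split by tissue. Of the 32 genes, 23 had the higher mean level in liver and 9 in aorta: F3, F2r, Procr, Pros1, Thbd, Tfpi, Plat, Plau and Plaur. Prothrombin, fibrinogen, the contact factors, plasminogen and the plasma serpins were liver transcripts, whereas tissue factor, the thrombin receptor, thrombomodulin, the protein C receptor, tissue factor pathway inhibitor, both plasminogen activators and the urokinase receptor were higher in aorta. In liver 31 genes had a mean of at least 1 CPM, and in aorta 14 did. Of the 23 genes higher in liver, 5 (F5, F7, F8, F10 and Kng1) also reached 1 CPM in aorta. The other 18 stayed under 1 CPM there, and 12 of the 32 had an aorta library with 0 counts.

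**Figure D1:**
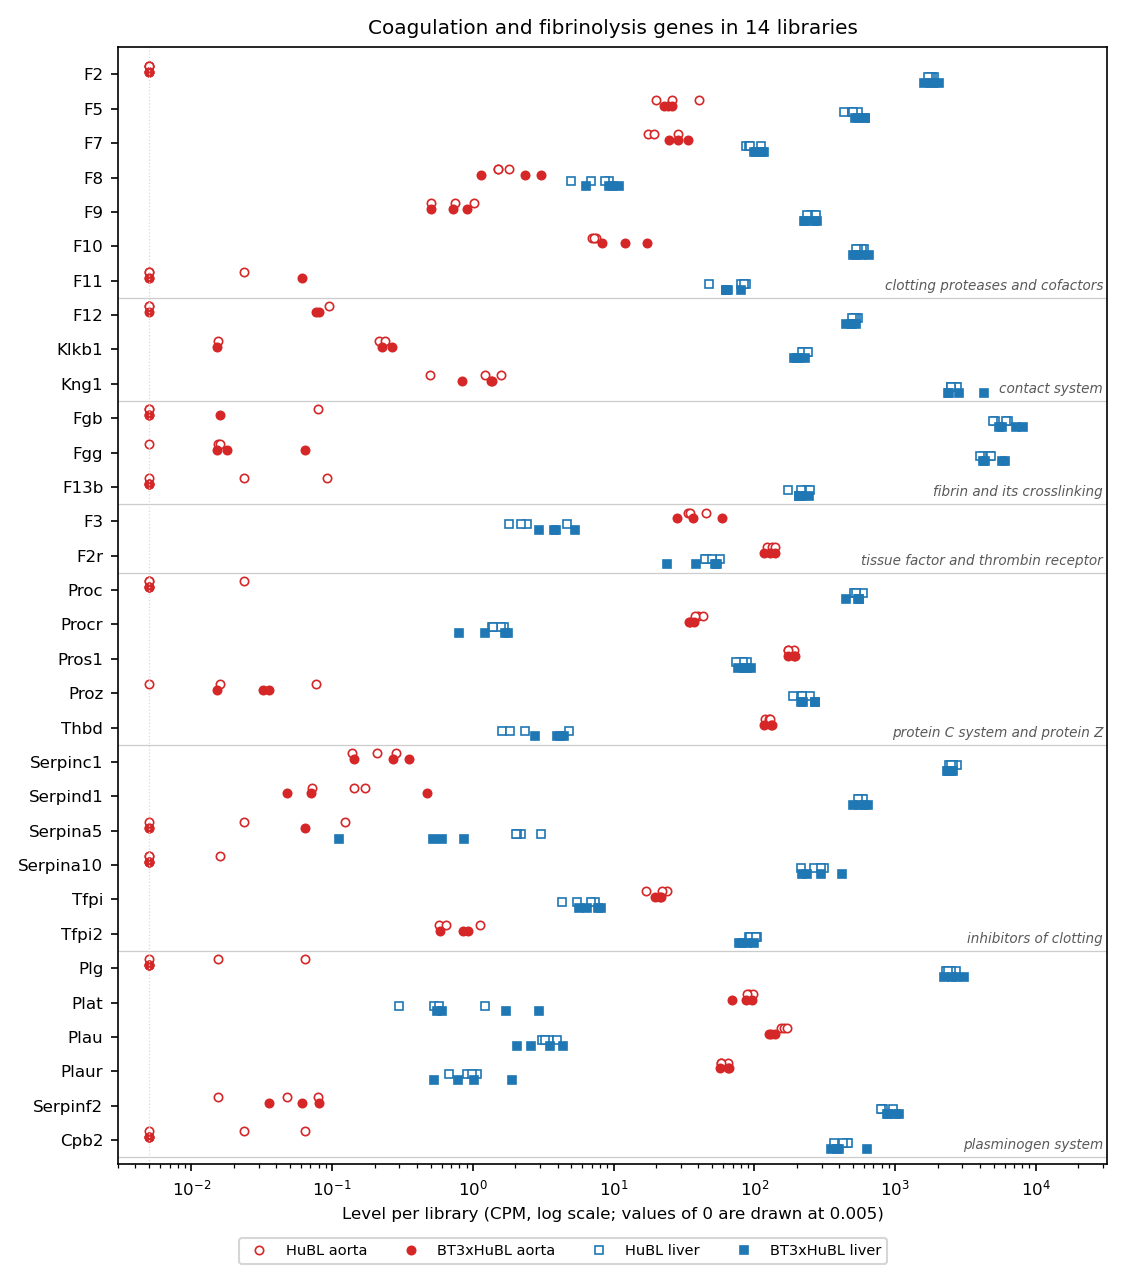
Level of each of the 32 genes in CPM on a log axis, with 1 point per library: circles are aorta, squares are liver, open symbols are HuBL and filled symbols are BT3xHuBL, and values of 0 are drawn at 0.005. Within each genotype, aorta (red) and liver (blue) points lie apart for every gene, with 9 genes to the right in aorta and 23 in liver. Across genotypes the Serpina5 points cross, with HuBL aorta replicate 1 at 0.123 CPM and BT3xHuBL liver replicate 4 at 0.111 CPM. Open and filled symbols of a tissue mostly share a range.

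Tissue differences were tested in each genotype alone. The edgeR quasi-likelihood test called 32 of 32 genes in HuBL beside 83.7% of all tested features, and 31 of 31 tested in BT3xHuBL beside 82.1%, at an adjusted p of 0.05. In HuBL 9 were higher in aorta and 23 in liver, beside 44.5% and 39.2% of features, and in BT3xHuBL 9 and 22, beside 42.5% and 39.5%. The libraries of the tissues did not overlap for any of the 32 and 31 genes, beside 85.8% and 82.6% of features. These shares are read against a background in which most features differ between the tissues, and 15 genes passed the low-count filter through the reads of 1 tissue alone and had to differ, 14 through liver and Plat through aorta. The counts above are thus a description. Adding the requirement of a 4-fold difference left 6 genes higher in aorta and 23 in liver in HuBL, beside 23.7% and 13.7% of features, and 6 and 22 in BT3xHuBL, beside 23.2% and 13.3%. Scaling matters here: on plain library totals the median feature stood 0.85 (HuBL) and 0.79 (BT3xHuBL) higher in aorta on the log2 scale, against 0.10 and 0.04 with TMM scaling. No gene of the set changed its direction between the TMM, RLE and plain scalings. Ratios of CPM below use plain totals, and log2 fold changes use TMM unless plain library totals are named. Tissue, library series and depth cannot be told apart, and in bulk RNA fewer cells of a type and less RNA per cell cannot be told apart either.

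Promoters were compared because the genes divided so sharply by tissue. RefSeq promoter windows (GRCm38.p6) matched 25 of the 32 genes, 19 higher in liver and 6 higher in aorta. No window matched Plau, Plat and Thbd, all higher in aorta, or Proc, Serpina10, Plg and Kng1, all higher in liver. The 250 bases before each start were searched on both strands for 5 short motifs chosen with the tissue split known. A gene counted when any of its windows matched (3 windows for Tfpi2 and 2 for Tfpi), whereas the shares over all windows count single windows. The letters of the hepatocyte factor HNF1 (GTTAAT or its complement) stood in 4 of 19 liver-higher genes, 21.1%, and in 0 of 6 aorta-higher genes, beside 6.43% of 32841 windows. The liver windows with it were those of F13b, Fgb, Proz and Tfpi2, and the nearest to the start was at positions -29 to -24 from the start, in Fgb. Those of Fgb (chr3:83049864-83050073, minus strand) and F13b (chr1:139501497-139501706, plus strand) are shown 5′ to 3′ over the last 210 bases before the start, with the HNF1 letters in capitals.
Fgb: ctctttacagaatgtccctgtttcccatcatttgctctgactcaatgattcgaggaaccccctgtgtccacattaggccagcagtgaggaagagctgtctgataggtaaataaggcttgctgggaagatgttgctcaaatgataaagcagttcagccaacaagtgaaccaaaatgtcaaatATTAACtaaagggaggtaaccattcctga
F13b: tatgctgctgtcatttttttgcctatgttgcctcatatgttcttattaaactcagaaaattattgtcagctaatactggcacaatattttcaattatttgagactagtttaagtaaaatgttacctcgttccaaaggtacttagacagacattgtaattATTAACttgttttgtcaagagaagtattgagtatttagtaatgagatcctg

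The AP-1 letters (TGANTCA) were more frequent among the aorta-higher genes. They stood in 4 of 6 aorta-higher genes, 66.7%, and in 3 of 19 liver-higher genes, 15.8%, beside 6.75% of all windows. The liver-higher genes were F2, Fgb and Tfpi2, and the AP-1 letters of Fgb, at positions -173 to -167, are in lower case above. A GC box (GGGCGG or its complement) stood in 5 of 6 aorta-higher genes, 83.3%, and in 2 of 19 liver-higher genes, 10.5%, beside 32.7% of all windows. The 4 aorta-higher genes with AP-1 letters are shown over the same 210 bases: F3 (chr3:121723327-121723536, plus strand), Plaur (chr7:24462273-24462482, plus strand), F2r (chr13:95618467-95618676, minus strand) and Procr (chr2:155751007-155751216, plus strand). Capitals mark AP-1 letters in all 4 and GC boxes in F3, Plaur and F2r.
F3: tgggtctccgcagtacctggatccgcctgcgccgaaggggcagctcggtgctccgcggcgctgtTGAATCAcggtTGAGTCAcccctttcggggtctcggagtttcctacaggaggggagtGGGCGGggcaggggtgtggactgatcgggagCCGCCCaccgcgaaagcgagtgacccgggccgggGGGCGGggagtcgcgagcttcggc
Plaur: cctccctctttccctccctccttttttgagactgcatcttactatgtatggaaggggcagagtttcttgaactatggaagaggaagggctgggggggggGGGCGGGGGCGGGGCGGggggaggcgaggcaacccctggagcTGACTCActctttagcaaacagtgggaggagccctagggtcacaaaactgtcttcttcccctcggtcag
F2r: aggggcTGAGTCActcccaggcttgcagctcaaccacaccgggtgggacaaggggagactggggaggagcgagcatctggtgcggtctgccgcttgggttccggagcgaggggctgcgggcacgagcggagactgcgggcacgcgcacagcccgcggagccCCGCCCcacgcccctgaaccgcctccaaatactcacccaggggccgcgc
Procr: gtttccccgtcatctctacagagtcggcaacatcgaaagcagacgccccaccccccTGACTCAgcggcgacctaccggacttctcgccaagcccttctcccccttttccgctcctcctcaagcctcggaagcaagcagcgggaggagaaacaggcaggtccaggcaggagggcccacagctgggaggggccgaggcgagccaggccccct
The HNF4 letters (CAAAGTCC) and the CEBP letters (TTNNGCAAT) were in 0 of the 25 genes, beside 1.2% and 1.93% of all windows. A match of letters is a description of the window and no evidence of binding, and no binding was measured.

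**Figure D2:**
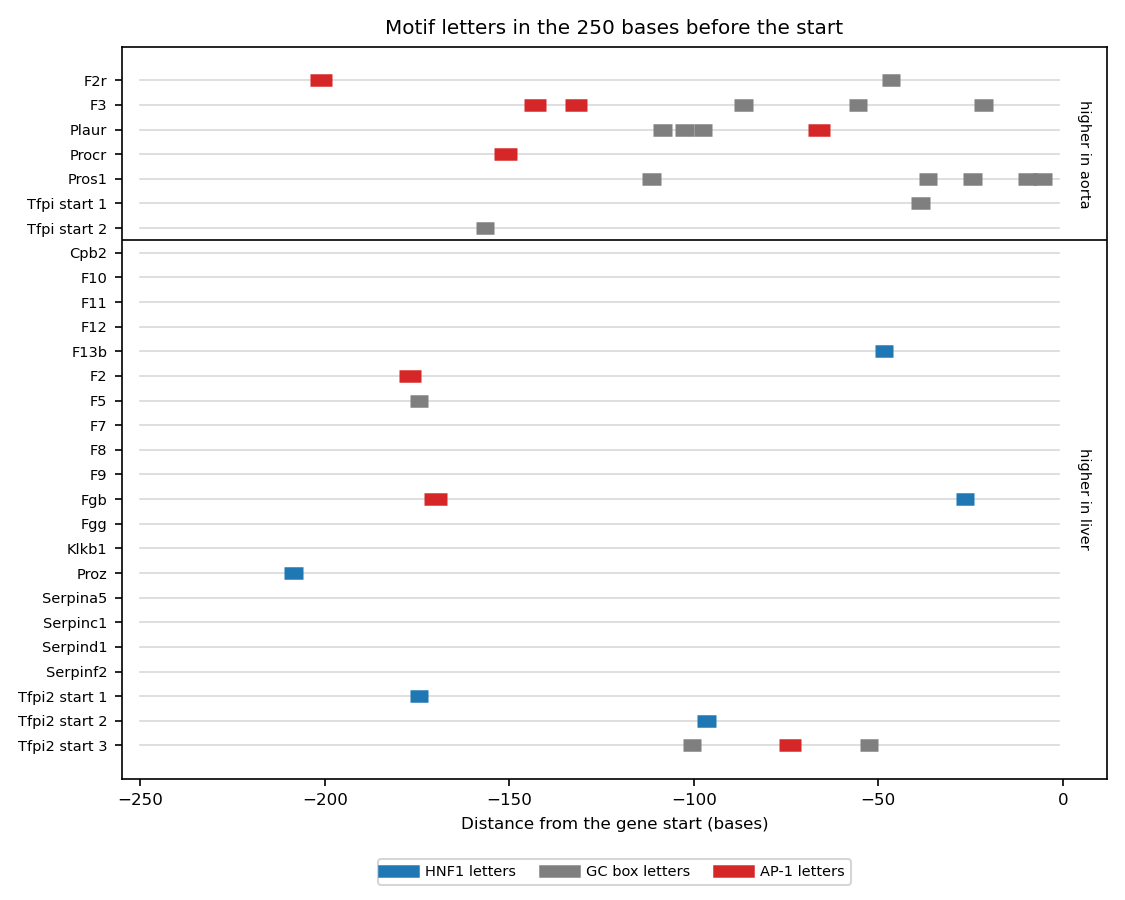
Positions of HNF1, GC box and AP-1 letters in the 250 bases before each RefSeq start, in bases from the start, with 1 line per promoter window. GC boxes and AP-1 letters lie mostly in the windows of aorta-higher genes at the top. The HNF1 letters lie in 4 of 19 liver-higher genes and 0 of 6 aorta-higher genes, beside 6.43% of all windows. With 6 genes searched, the 0 cannot show that the aorta-higher genes lack these letters as a class.

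Among the clotting proteases, prothrombin (F2, the precursor of thrombin) was read 0 times in all 6 aortas. In liver HuBL had 1796 ± 81.8 CPM and BT3xHuBL 1824 ± 191 CPM (SD, n = 4 each). A count of 0 over an aorta group allows up to 3 counts, so liver was at least 101000-fold higher in HuBL and at least 113000-fold higher in BT3xHuBL, counting error only. Factor IX (F9), the protease whose loss causes haemophilia B, measured 257 ± 16.5 and 249.8 ± 27.0 CPM in the livers and 0.756 ± 0.259 and 0.710 ± 0.201 CPM in the aortas. The edgeR log2 fold change of F9, aorta over liver, was -9.12 (SE 0.21) in HuBL and -9.21 (SE 0.27) in BT3xHuBL. Factor XI (F11), which activates factor IX, had 1 count in the HuBL aortas and 4 counts in the BT3xHuBL aortas, all of those in replicate 2. Its liver level was 12500 times that of aorta in HuBL (95% counting interval 2250 to 495000) and 3110 times in BT3xHuBL (1210 to 11400).

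The remaining factors of this group were liver transcripts that could also be measured in aorta. F5, the cofactor of factor Xa, stood at 19.9, 40.4 and 25.8 CPM in the HuBL aortas and 26.0, 22.7 and 24.5 CPM in the BT3xHuBL aortas. HuBL replicate 2 was high and the groups overlapped. In liver F5 measured 493.3 ± 47.2 CPM in HuBL and 568.3 ± 46.4 in BT3xHuBL, and the log2 fold change of aorta over liver was -4.86 (SE 0.25) and -5.29 (SE 0.17). F5 lies at chr1:164151838-164220277 and its feature name carries the tables' mark for an overlapping gene, so reads of another gene could be included. F8, Klkb1, Serpinc1, Serpind1 and Plg carry no such mark but overlap a protein-coding gene in the GENCODE M21 annotation. Reads of another gene could be part of their low aorta counts too, which was not tested. F8, the factor IX cofactor, measured 1.59 ± 0.168 and 2.16 ± 0.953 CPM in aorta and 7.45 ± 1.96 and 9.12 ± 1.94 CPM in liver. Its tissue difference was among the smallest of the liver-higher genes, at -2.97 (SE 0.24) and -2.84 (SE 0.36).

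F7 and F10 are neighbours on chromosome 8. F7 (chr8:13026034-13035809) ends 1499 bases before F10 (chr8:13037308-13056676) begins, on the same strand, and Proz (chr8:13060914-13076026) follows F10 after 4238 bases. F7, the protease that binds tissue factor, was at 28.6, 17.5 and 19.2 CPM in the HuBL aortas and 28.8, 34.0 and 24.8 CPM in the BT3xHuBL aortas, against 96.0 ± 10.8 and 107.7 ± 8.91 CPM in the livers. The aorta ranges of the genotypes overlapped through HuBL replicate 1. F10, the protease that makes thrombin, was at 563.9 ± 33.6 and 565.4 ± 65.1 CPM in the livers, and Proz, a cofactor for the inhibition of factor Xa, at 218.5 ± 25.1 and 244.5 ± 30.2 CPM. The log2 fold change of aorta over liver was -2.89 (SE 0.18) for F7 and -7.04 (SE 0.15) for F10 in HuBL, and -2.64 (SE 0.15) and -6.25 (SE 0.31) in BT3xHuBL. Proz had 6 counts in the HuBL aortas and 5 in the BT3xHuBL aortas, a liver level 6120 and 9050 times that of aorta. The 3 neighbours therefore ranged in aorta from 25.5 CPM for F7 over 9.89 CPM for F10 to 0.0293 CPM for Proz. Beside F7 and F10, the hepatocyte marker Alb measured 0 to 0.617 CPM in the aortas, Tat was at 0 in all 6, and Ahsg made up most of the hepatocyte sum at 5.03 to 11 CPM.

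The contact system starts clotting on surfaces and releases bradykinin. Its protease F12 measured 516.7 ± 23.6 and 490.2 ± 32.5 CPM in the livers, with 6 and 10 counts in the aorta groups, a ratio of 14600 (95% counting interval 6700 to 39800) and 9060 (4930 to 18900). Klkb1, prekallikrein, which is cleaved by factor XIIa, measured 228.6 ± 10.5 and 207.7 ± 16.1 CPM in liver, 0.0154 to 0.239 CPM in the HuBL aortas and 0.0153 to 0.266 CPM in the BT3xHuBL aortas. Its log2 fold change of aorta over liver was -11.31 (SE 0.35) in HuBL and -11.02 (SE 0.47) in BT3xHuBL. Klkb1 and F11 come from related genes that lie 4658 bases apart on chromosome 8, and both were liver transcripts. Kng1, the kininogen from which bradykinin is cut, was one of the most abundant genes of the set in liver, at 2607 ± 140 and 2982 ± 892 CPM, and stood at 1.10 ± 0.552 and 1.18 ± 0.301 CPM in aorta. The wide spread in BT3xHuBL livers came from replicate 4 at 4290 CPM, while the other 3 lay between 2390 and 2830 CPM. In that library the 32 genes took 3.16% of the counts, the largest share of any library. Cpb2, Serpina10 and Plg were also highest there, at 633, 417 and 3070 CPM. Not all genes were high in it, as F2r was lowest there, at 23.8 CPM. The log2 fold change of Kng1 was -11.99 (SE 0.40) in HuBL and -12.07 (SE 0.48) in BT3xHuBL.

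Fibrinogen led the set in liver. Fgb, the beta chain, measured 5140, 6360, 6090 and 4940 CPM in the HuBL livers and 5490, 8110, 5740 and 7250 CPM in the BT3xHuBL livers. Replicates 2 and 4 of BT3xHuBL were the highest and the genotypes overlapped. Fgg, the gamma chain, lies 25092 bases from Fgb on chromosome 3, on the opposite strand, and measured 4250, 4700, 4790 and 4010 CPM in the HuBL livers, beside 4220, 5730, 4370 and 6050 CPM in the BT3xHuBL livers. The same 2 BT3xHuBL livers were again the highest. The ratio of Fgb to Fgg counts kept to 1.21 to 1.35 in the HuBL livers and 1.20 to 1.41 in the BT3xHuBL livers, with means of 1.27 ± 0.0619 and 1.30 ± 0.0858. In aorta Fgb had 5 counts in HuBL and 1 in BT3xHuBL, and Fgg had 2 and 6. The liver level of Fgb was 188000 times that of aorta in HuBL (95% counting interval 80700 to 580000), and that of Fgg 373000 times (103000 to 3080000). In BT3xHuBL the ratio was 1230000 for Fgb (220000 to 48500000) and 158000 for Fgg (72400 to 430000). F13b, the carrier subunit of the factor that crosslinks fibrin, measured 217.1 ± 33.1 and 219.4 ± 17.9 CPM in the livers. It had 7 counts in the HuBL aortas, a ratio of 5190 (2520 to 12900), and 0 in the BT3xHuBL aortas, where liver was at least 13400-fold higher.

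Tissue factor and the thrombin receptor were on the aortic side. F3, tissue factor, was higher in every aorta, at 37.9 ± 6.19 CPM in HuBL and 41.2 ± 15.8 CPM in BT3xHuBL, than in any liver, at 2.77 ± 1.28 and 4.00 ± 0.996 CPM. The spread among BT3xHuBL aortas was among the widest of the set, with a coefficient of variation of 38.3% beside 16.3% in HuBL. The edgeR log2 fold change of aorta over liver was 2.99 (SE 0.24, adjusted p = 5.95e-07) in HuBL and 2.63 (SE 0.26, adjusted p = 1.09e-05) in BT3xHuBL. F2r, the receptor through which thrombin signals to cells, was at 123, 134 and 139 CPM in the HuBL aortas and 117, 128 and 139 CPM in the BT3xHuBL aortas. It was also well read in liver, at 44.3 to 56.7 CPM in HuBL and 23.8 to 54.1 CPM in BT3xHuBL, with BT3xHuBL replicate 4 lowest. Its tissue difference was small with TMM scaling, at 0.66 (SE 0.10, adjusted p = 7.57e-05) and 0.88 (SE 0.22, adjusted p = 0.00447) by edgeR. On plain library totals it was 1.42 in HuBL and 1.6 in BT3xHuBL.

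The protein C system shuts clotting down, and its genes divided between the tissues. The protease precursor Proc measured 540.8 ± 37.4 and 522.6 ± 48.9 CPM in the livers, and had 1 count in the HuBL aortas and 0 in the BT3xHuBL aortas. Liver was 92100 times aorta in HuBL (95% counting interval 16500 to 3640000) and at least 32100-fold higher in BT3xHuBL. Its 2 surface receptors lay on the other side. Thbd, thrombomodulin, which turns thrombin into an activator of protein C, was at 119, 126 and 130 CPM in the HuBL aortas and 133, 116 and 131 CPM in the BT3xHuBL aortas. The livers were far lower, at 1.61 to 4.84 CPM in HuBL and 2.76 to 4.45 CPM in BT3xHuBL. The log2 fold change of Thbd was 4.85 (SE 0.26) and 4.30 (SE 0.15). Procr, the endothelial receptor that presents protein C, measured 40.2 ± 2.67 and 35.5 ± 1.66 CPM in aorta and 1.497 ± 0.151 and 1.37 ± 0.457 CPM in liver, a log2 fold change of 3.98 (SE 0.14) and 3.93 (SE 0.22). Pros1, the cofactor of activated protein C, was the most abundant gene of the set in aorta, at 179 ± 9.51 and 186.7 ± 11.2 CPM, and stood at 80.8 ± 5.96 and 86.1 ± 7.78 CPM in liver. Its tissue difference was the smallest of the set, at 0.39 (SE 0.10, adjusted p = 0.00269) in HuBL and 0.36 (SE 0.12, adjusted p = 0.0174) in BT3xHuBL by edgeR. On plain library totals it was 1.15 in HuBL and 1.12 in BT3xHuBL. Without BT3xHuBL aorta replicate 1 the adjusted p for Pros1 in BT3xHuBL was 0.0519, and it lay between 3.7e-06 and 0.0519 over the 14 alternatives run with edgeR, DESeq2 and limma other than the test against a 4-fold change, where it was 1.0.

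Among the inhibitors of clotting, Tfpi alone was higher in aorta. Serpinc1, antithrombin, measured 2557 ± 155 and 2453 ± 102 CPM in the livers and 0.211 ± 0.0737 and 0.255 ± 0.105 CPM in the aortas, a log2 fold change of -14.36 (SE 0.27) and -13.94 (SE 0.37). Serpind1, heparin cofactor II, was the steadiest gene of the set in HuBL liver, with a coefficient of variation of 3.8%, at 569.2 ± 21.6 CPM, beside 572.8 ± 60.8 CPM in BT3xHuBL. Its aorta counts were 23 and 38, a ratio of 4180 (95% counting interval 2780 to 6590) and 2790 (2030 to 3950). Serpina10, the protein Z-dependent inhibitor, measured 272.8 ± 43.4 and 292.2 ± 89.6 CPM in the livers, with 1 and 0 counts in aorta. The ratio was 45500 (8170 to 1800000) in HuBL and at least 18300-fold in BT3xHuBL. Serpina5, the protein C inhibitor, which in mice is made mainly outside the liver, was the lowest of the liver-higher genes, at 2.32 ± 0.473 and 0.525 ± 0.312 CPM, and had 9 and 4 counts in the aortas, a ratio of 43.1 (22.1 to 96.3) and 23.3 (8.27 to 90.7). Tfpi, which blocks tissue factor with factor VIIa, was at 21.0 ± 3.69 and 20.9 ± 1.01 CPM in aorta and 6.004 ± 1.39 and 6.99 ± 1.15 CPM in liver, a log2 fold change of 1.06 (SE 0.18) and 0.83 (SE 0.16). On plain library totals the log2 fold change of Tfpi was 1.81 in HuBL and 1.58 in BT3xHuBL. Its relative Tfpi2, a protease inhibitor of the matrix, was placed the other way round. Tfpi2 measured 97.9 ± 6.88 and 87.0 ± 9.81 CPM in the livers and 0.782 ± 0.305 and 0.787 ± 0.183 CPM in the aortas, a log2 fold change of -7.70 (SE 0.21) and -7.53 (SE 0.19).

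In the plasminogen system the zymogen and its activators were apart. Plg, plasminogen, measured 2472 ± 180 and 2639 ± 348 CPM in the livers, with 5 counts in the HuBL aortas and 0 in the BT3xHuBL aortas, a ratio of 83200 (95% counting interval 35700 to 256000) and at least 163000-fold. Serpinf2, the plasmin inhibitor, measured 848.1 ± 77.3 and 959.2 ± 93.3 CPM in liver and had 8 and 11 counts in aorta, a ratio of 17800 (9060 to 41300) and 16100 (9020 to 32300). Cpb2, which trims fibrin so that plasminogen binds less, measured 427.9 ± 43.0 and 442.1 ± 129 CPM in liver, with BT3xHuBL replicate 4 at 633 CPM. Its 5 counts in the HuBL aortas gave a ratio of 14400 (6180 to 44400), and the 0 counts in the BT3xHuBL aortas at least 27700-fold. The activators showed the opposite order. Plau, urokinase, measured 162.4 ± 7.77 and 132.6 ± 6.54 CPM in aorta and 3.44 ± 0.380 and 3.13 ± 1.02 CPM in liver, a log2 fold change of 4.79 (SE 0.10) and 4.68 (SE 0.17). Plat, tissue plasminogen activator, measured 92.7 ± 4.14 and 84.6 ± 13.9 CPM in aorta and 0.652 ± 0.391 and 1.46 ± 1.12 CPM in liver. As its liver counts were too low for the filter, Plat is given by its ratio of CPM alone, which was 147 in HuBL and 59.2 in BT3xHuBL, aorta over liver. Plaur, the receptor that holds urokinase at the cell surface, measured 60.2 ± 3.81 and 62.7 ± 5.06 CPM in aorta and 0.909 ± 0.168 and 1.05 ± 0.592 CPM in liver, a log2 fold change of 5.27 (SE 0.14) and 5.16 (SE 0.25). By edgeR, the smallest adjusted p of Plau and Plaur was 6.13e-12 (Plau in HuBL) and the largest 8.23e-08 (Plaur in BT3xHuBL).

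The order of levels differed between the tissues. Over all livers it ran from Fgb at 6139 CPM and Fgg at 4766 CPM over Kng1 (2795), Plg (2555) and Serpinc1 (2505) to F2 (1810) and Serpinf2 (904), each a mean in CPM. The ranges of neighbours in this order overlapped from Fgb down to Serpinc1, and F2 and Serpinf2 each stood apart from both neighbours. From Serpind1 (571) to F13b (218) all neighbours overlapped, and F13b stood apart from F7 (102). Over all aortas the order was Pros1 (183), Plau (148), F2r (130), Thbd (126), Plat (88.6), Plaur (61.4), F3 (39.5), Procr (37.8), F5 (26.5), F7 (25.5), Tfpi (21.0) and F10 (9.89). Pros1 stood apart from Plau, the ranges of Plau, F2r and Thbd overlapped, Thbd stood apart from Plat, and Plat stood apart from Plaur. The genes from Plaur to F10 overlapped with their neighbours, and F10 stood apart from F8 (1.88).

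Whether the T cell receptor transgene goes with other levels of these genes was asked in each tissue. In aorta the edgeR quasi-likelihood test called 0 of the 18 genes that passed the low-count filter at an adjusted p of 0.05, beside 4 of 15400 features, 0.026%. At an unadjusted p under 0.05 there were 3 of 18 genes, Plau, F10 and Procr, beside 4.08% of features, by DESeq2 there was 1, Plau, beside 0.442%, and by limma-voom 0. The libraries of the genotypes did not overlap for the same 3 genes, F10 higher and Plau and Procr lower in BT3xHuBL, beside 8.99% of features. The median log2 fold change over the 18 was 0.016, with 9 above and 9 below 0, against -0.004 over all features. The 14 genes that were not tested were liver transcripts under 1 CPM in aorta.

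Plau was the gene of smallest p in aorta. It measured 155, 161 and 171 CPM in the HuBL aortas and 131, 140 and 127 CPM in the BT3xHuBL aortas. Every BT3xHuBL library lay below every HuBL library. The log2 fold change was -0.31 (SE 0.07) and did not pass in edgeR (adjusted p = 0.52), but passed in DESeq2 at 0.0259. The adjusted p for Plau lay between 0.0259 and 1.0 over 14 alternatives, and the fold change between -0.35 and -0.28.

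F10 had the largest fold change of the tested genes in aorta. It was at 7.02, 7.49 and 7.24 CPM in the HuBL aortas and 12.1, 17.3 and 8.29 CPM in the BT3xHuBL aortas. The HuBL libraries were close together, and the BT3xHuBL libraries all lay above them but far apart. The log2 fold change was 0.76 (SE 0.22, edgeR adjusted p = 0.899), and without BT3xHuBL replicate 2, the highest library, it was 0.48. Procr was at 39.5, 43.2 and 38.0 CPM in the HuBL aortas and at 34.8, 37.4 and 34.3 CPM in the BT3xHuBL aortas, with every BT3xHuBL value lower, a log2 fold change of -0.20 (SE 0.09, edgeR adjusted p = 1.0). Of the other genes of small p, F7 differed by 0.40 (SE 0.19), F8 by 0.41 (SE 0.35), Plat by -0.15 (SE 0.12), F5 by -0.26 (SE 0.26) and F2r by -0.06 (SE 0.09), and for each of these the genotypes overlapped. Several of these values rested on 1 library. F7 was 0.64 without HuBL replicate 1, F8 was 0.10 without BT3xHuBL replicate 2 and 0.71 without replicate 3, and Plat was -0.02 and -0.28 without those same libraries. F5 turned to 0.09 without HuBL replicate 2, and F2r to 0.0062 without BT3xHuBL replicate 1.

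For 4 marker lists the summed levels did not overlap between the genotypes in these aortas. The summed level of 14 circadian clock genes was 540 to 583 CPM in HuBL and 674 to 905 CPM in BT3xHuBL, 11 of 14 genes had a fold change above 0, and 1 passed the threshold. The 3 B cell and plasma cell markers found summed to 9.96 to 18.2 CPM in HuBL and 3.36 to 5.25 CPM in BT3xHuBL, with 3 of 3 below 0 and 0 passing in edgeR. The macrophage markers (6 found) summed to 18600 to 23600 CPM in HuBL and 15900 to 18500 CPM in BT3xHuBL. Of these, 3 were above and 3 below 0. Spp1 made up most of the macrophage sum, at a mean of 14320 CPM in HuBL and 11650 CPM in BT3xHuBL, and overlapped between the genotypes. The 5 fibroblast markers summed to 9330 to 9790 and 8940 to 9120 CPM, with 2 above and 3 below 0. The median log2 fold change was 0.017 for the macrophage and -0.004 for the fibroblast markers, beside -0.004 over all features. No marker of these 4 lists was at 0 in a whole aorta group. The summed levels of the other 9 marker lists overlapped between the genotypes. Several of these sums were highest in BT3xHuBL aorta replicate 1, the library with the highest F3. These were the mesothelial (17.1 CPM), adipocyte (193 CPM), T cell (13.3 CPM), liver sinusoidal endothelial (147 CPM) and hepatocyte (12.2 CPM) sums. The smooth muscle, endothelial, Kupffer cell and stellate cell sums were not highest there. The part of all these lists in the values of F3, Plau, Procr and F10 was not tested.

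**Figure D3:**
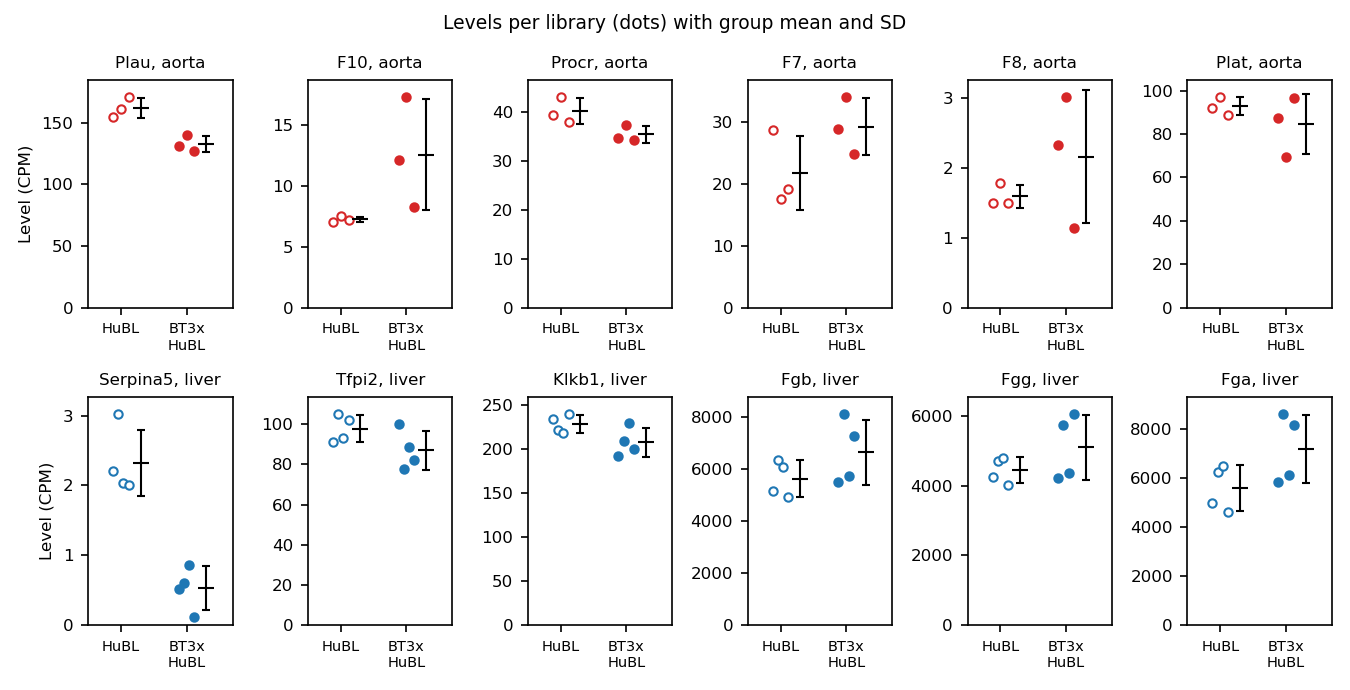
Level in CPM of 12 genes in each library, with open dots for HuBL, filled dots for BT3xHuBL, and bars for group mean and SD (n = 3 per aorta group, n = 4 per liver group); each axis starts at 0. Plau and Procr are lower and F10 is higher in all 3 BT3xHuBL aortas, Serpina5 is lower in all 4 BT3xHuBL livers, and the 3 fibrinogen chains share 2 high BT3xHuBL livers.

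In liver the edgeR test called 0 of 31 tested genes, beside 0 of 12453 features, 0.0%. At an unadjusted p under 0.05 there were 2 of 31, Serpina5 and Tfpi2, beside 11.1% of features. DESeq2 called 1, Serpina5, beside 1.07%, and limma-voom 0. The genotypes did not overlap for 1 gene, Serpina5, beside 5.66% of features. The median log2 fold change was 0.025, with 16 above and 15 below 0, against 0.009 over all features. Plat was too low in liver to be tested.

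Serpina5 was the gene that stood out. Its level was 2.20, 3.02, 2.04 and 2.01 CPM in the HuBL livers and 0.521, 0.606, 0.864 and 0.111 CPM in the BT3xHuBL livers. All 4 BT3xHuBL livers were below all 4 HuBL livers. These levels rest on 37, 40, 27 and 35 counts in HuBL and 8, 9, 13 and 2 counts in BT3xHuBL, so the lowest library was under the limit of 3 counts. On the log2 scale the difference was -2.20 (SE 0.40). Its adjusted p was 0.165 in edgeR and 0.000232 in DESeq2, with a range of 0.000232 to 0.503 over 15 alternatives. The fold change stayed between -2.55 and -1.86 over these alternatives. Beside it, the summed T cell markers (4 genes) were 4.25 to 10.1 CPM in the HuBL livers and 2.00 to 4.18 CPM in the BT3xHuBL livers, with 4 of 4 below 0, 0 passing in edgeR and none at 0 in a whole group, and their part in the Serpina5 value was not tested. The sums of the other 12 marker lists overlapped between the genotypes in liver. Serpina5 lies at chr12:104101113-104106137, 469669 bases from Serpina10, whose level did not follow it, with a log2 fold change of 0.08 (SE 0.24).

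The other liver genes of small p differed little. Tfpi2 was at 91.0, 105, 93.1 and 102 CPM in the HuBL livers and at 100, 77.5, 88.5 and 82.0 CPM in the BT3xHuBL livers, with 3 of the BT3xHuBL livers below all HuBL livers, a log2 fold change of -0.21 (SE 0.09, edgeR adjusted p = 0.418). Klkb1 differed by -0.18 (SE 0.10), F5 by 0.17 (SE 0.11) and Fgb by 0.21 (SE 0.17). The vessel wall genes F3 and Thbd, both low in liver, were at 0.46 (SE 0.28) and 0.52 (SE 0.33), and F2r at -0.28 (SE 0.20). The genotypes overlapped for each of these. F3 was 0.82 without HuBL replicate 4, Thbd was 0.96 without HuBL replicate 3, Klkb1 was -0.12 without BT3xHuBL replicate 1, and without BT3xHuBL replicate 4 F5 was 0.10, F2r -0.11 and Fgb 0.12. Leaving out BT3xHuBL replicate 2 gave 0.11 for Fgb, and leaving out HuBL replicate 4 gave 0.14.

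**Figure D4:**
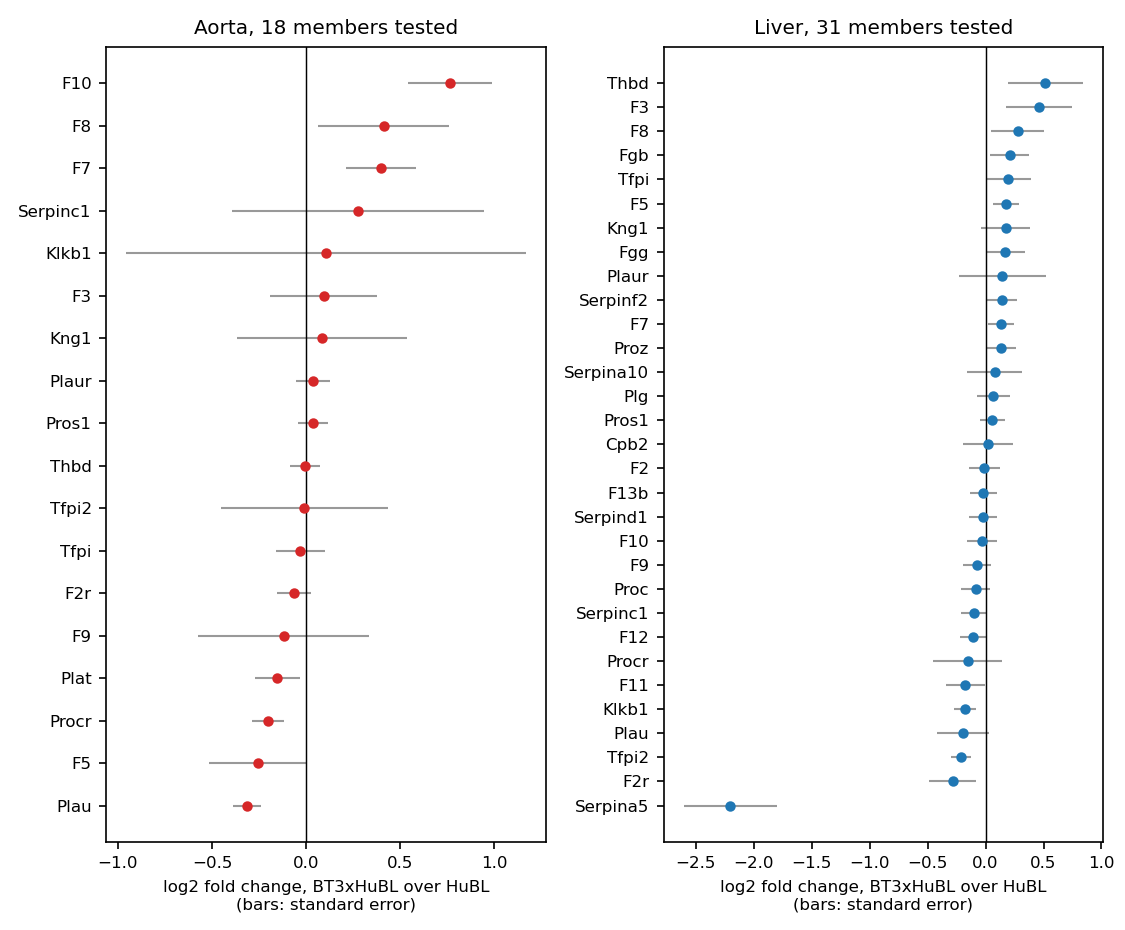
Log2 fold change of BT3xHuBL over HuBL with its standard error from edgeR for the genes tested in aorta (18) and in liver (31), sorted by size; the 2 panels have different axes. Plau in aorta and Serpina5 in liver lie furthest below 0 and F10 in aorta furthest above, and no gene passed the adjusted threshold.

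The genotype difference was then compared between the tissues over the 17 genes kept in both. The edgeR interaction test called 0 of 17, beside 0 of 11951 features, 0.0%. At an unadjusted p under 0.05 there was 1 gene, F10, beside 8.61% of features, and DESeq2 called 0 genes of the set, beside 0.351% of features, and limma-voom 0. F10 was higher in BT3xHuBL aorta and close to equal in liver, where the log2 fold change was -0.03 (SE 0.13). The difference of 0.81 (SE 0.27) had an edgeR adjusted p of 0.456, between 0.115 and 0.775 over 21 alternatives, and was 0.52 without BT3xHuBL aorta replicate 2. For Plau the difference between the tissues was -0.10 (SE 0.20).

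Replicates of these genes were about as tight as those of other genes at a mean of at least 1 CPM. The median coefficient of variation was 6.59% over 14 genes in HuBL aorta, beside 8.28% over all such features, and 8.31% beside 9.4% in BT3xHuBL aorta. In liver it was 9.83% over 30 genes beside 12.5% in HuBL, and 12.9% over 31 genes beside 14.2% in BT3xHuBL. The widest values were those of Plat and Plaur in BT3xHuBL liver, at 77.2% and 56.2%, and Thbd in HuBL liver, at 56.0%.

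Further genes of the pathway were taken from 6 lists, whose counts stand beside 44.5% of features higher in aorta and 39.2% higher in liver in HuBL, and 42.5% and 39.5% in BT3xHuBL. In aorta against liver, 5 of 5 genes of the vitamin K cycle and of factor secretion were higher in liver in either genotype by edgeR, among them Ggcx, the enzyme that carboxylates clotting factors (log2 fold change of aorta over liver -1.60 and -1.84 in HuBL and BT3xHuBL), and Lman1, which carries factors V and VIII out of the cell (-1.96 and -2.09). All 4 vessel wall antithrombotic genes were higher in aorta, including Ptgis, the prostacyclin synthase (7.02 and 7.30), and Entpd1, which removes ADP (4.16 and 4.57). Of 4 other coagulation factors, Vwf (5.55 and 5.42) and F13a1 (5.66 and 5.69) were higher in aorta, and Fga and Kng2 were higher in liver. Kng2 measured 289.4 ± 17.8 and 348.3 ± 94.0 CPM in the livers. Of 11 platelet and megakaryocyte genes, 6 were tested in each genotype, with 3 higher in aorta (Pf4, Gp1bb and Treml1) and 1 higher in liver (Clec1b). Of 10 other inhibitors and fibrinolysis regulators, 8 were tested, with 4 higher in aorta and 3 in liver in each genotype. Of 3 further thrombin receptors, F2rl1 was tested and higher in aorta. On plain library totals, a scaling added for these lists after seeing the data, 4 of the 5 vitamin K and secretion genes were called, as Vkorc1l1 moved from -0.90 and -0.97 to -0.15 and -0.23 (edgeR adjusted p = 0.211 and 0.159), and its tissues overlapped in CPM. With that scaling the inhibitors and the platelet genes each gained 1 call toward aorta in either genotype, and Clec1b was no longer called in BT3xHuBL.

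By genotype, none of these lists held a gene past the edgeR threshold in either tissue. The number above 0 of the number tested in aorta was 3 of 3 other coagulation factors, 1 of 3 receptors, 4 of 8 inhibitors and regulators, 1 of 5 vitamin K and secretion genes, 3 of 4 vessel wall genes and 7 of 9 platelet genes. In liver it was 4 of 4, 1 of 1, 3 of 8, 3 of 5, 0 of 4 and 0 of 3. In 5 of the lists the aorta gene of smallest p was Kng2 at 0.18 (SE 0.23), F2rl3 at -0.60 (SE 0.51), Lman1 at -0.09 (SE 0.08), Entpd1 at 0.14 (SE 0.07) and Clec1b at 0.66 (SE 0.36). Clec1b was 0.19 without BT3xHuBL replicate 2, and Kng2 turned to -0.03 without HuBL replicate 1. Without BT3xHuBL replicate 3 F2rl3 was -0.31 and Lman1 -0.18, and without replicate 1 or 2 Lman1 was -0.05 or -0.04. In liver the genes of smallest p in the 6 lists were Plgrkt at -0.45 (SE 0.14), F2rl1 at 0.65 (SE 0.60), Mcfd2 at -0.23 (SE 0.12), Entpd1 at -0.28 (SE 0.16), Clec1b at -0.34 (SE 0.23) and Fga at 0.33 (SE 0.18). F2rl1 turned to -0.25 without BT3xHuBL replicate 1. Entpd1 was -0.17 without BT3xHuBL replicate 3, where Clec1b was -0.18, and leaving out HuBL replicate 1 gave -0.13 for Clec1b. Fga, the alpha chain of fibrinogen, measured 4990, 6230, 6500 and 4620 CPM in the HuBL livers and 5840, 8600, 6130 and 8160 CPM in the BT3xHuBL livers. Replicates 2 and 4 of BT3xHuBL were the highest, as for Fgb and Fgg.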

How the data were processed

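The series holds 14 RNA libraries, 6 of aorta and 8 of liver. Per the labels' protocols, libraries were made with Lexogen QuantSeq V2, which reads 3′ ends. The authors deposited raw counts per feature, 1 table per tissue. The submitters' processing notes name HTSeq 2.0 and GRCm38. No source used here gives the aligner, the annotation or whether counting used strand. Of 22600 features found by name and chromosome in GENCODE M21, 1058 started within 1 kb, so gene positions come from GENCODE M21 and not from the tables.

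Each comparison was fitted on all features by the robust quasi-likelihood F-test of edgeR 4.0.16 under R 4.3.3 (TMM, filterByExpr, two-sided, Benjamini-Hochberg, threshold 0.05, prior count 0.125). Alternatives were DESeq2 1.42.0, limma-voom 3.58.1, other scalings and filters, the replicate number as a block, a fit of both tissues, glmTreat and each library left out. Ratios to near-empty aortas are of summed CPM, with exact 95% intervals and a floor of 3 counts over a group, which cover counting error only. Named with a genotype fold change are the 8 genes of smallest p per tissue, and 1 gene of each of 6 pathway lists. 1 gene that this rule names is not reported here. A further 13 lists hold markers of cell types and clock genes. The genes and lists were chosen with earlier results of these data known. The fits were tested on simulated data.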

Additional observations from a re-analysis of the deposited data

Results flagged for a closer look

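In groups of 4 livers, a library standing far from the other 3 was found in 4 of 61 groups screened, where chance gives about 1 in 20. F11 had 47.2 CPM in HuBL liver replicate 1, below the other 3 at 80.4 to 86.8 CPM, and 80.6 CPM in BT3xHuBL liver replicate 3, above the others at 62.3 to 65.1 CPM. Proc had 450.0 CPM in BT3xHuBL liver replicate 1, below the others at 540 to 551 CPM. Serpinf2 had 963 CPM in HuBL liver replicate 2, above the others at 796 to 822 CPM.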

How the results depend on the processing

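By DESeq2 the number of set genes called was 1 in aorta and 1 in liver in place of 0, and the number of features was 68 in aorta, 133 in liver and 42 in the interaction, in place of 4, 0 and 0. The aorta count of features was 9 with no low-count filter and 7 with a fit of both tissues, and the liver count with that fit was 5. The test against a 4-fold change gave 4641 features between the tissues in HuBL and 4433 in BT3xHuBL. Leaving out 1 library at a time gave 0 to 27 features in aorta (27 without BT3xHuBL replicate 3, 0 without HuBL replicate 2 or 3), 0 to 5 in liver (5 without BT3xHuBL replicate 2, 2 without replicate 3) and 0 to 4 in the interaction (4 without BT3xHuBL liver replicate 2), and 0 set genes in each. Leaving out 1 library reversed F5 in aorta (-0.47 to 0.0858), F2r in aorta (-0.15 to 0.0062), Kng2 in aorta (-0.0337 to 0.41) and F2rl1 in liver (-0.251 to 0.94). The cause was not tested. With the replicate block the features called were 14 in aorta, 10 in liver and 3 in the interaction. Between the genotypes of a tissue, libraries of the same number did not deviate together (correlations of -0.081 to 0.12 in aorta and -0.048 to 0.186 in liver). The numbers were therefore not taken as pairs in the genotype tests. Whether aorta and liver libraries of the same number deviate together was not examined, and the tissue and interaction tests treated them as unpaired. Depth limits the aorta values of the liver genes, where 3 counts are 0.0458 to 0.0715 CPM.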
